A study of Mus musculus with 27 samples.

Results

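Fibroblasts from the lungs of wild-type C57BL/6 mice, in primary culture, were kept for 35 days with KU60019 and then for 20 days without it, and their RNA was compared with that of the same kind of culture at the end of the 35 days. KU60019 is a small-molecule inhibitor of the kinase ATM. The comparison holds 6 of the 27 libraries of the study: 3 labelled as withdrawn for 20 days after 35 days of KU60019 and 3 labelled as 35 days of KU60019. They were chosen by these labels alone, and all expressed genes were tested. A further 6 libraries served as the reference. They were 3 of fibroblasts of the same strain and genotype withdrawn from the vehicle DMSO for 20 days after 35 days and 3 at 35 days of DMSO. The drug was used at 3 uM, and all cultures were grown in 3% oxygen with 15% fetal bovine serum. Withdrawal coincided with 20 more days in culture, so removal of the inhibitor and culture time cannot be told apart within the 6 libraries. The DMSO pair shares the added time and no library with the KU60019 pair. Its genes of mitosis rose over these days, so it is not a reference for time alone. By their titles the withdrawn KU60019 libraries are S22_705, S23_715 and S24_716, those at 35 d of KU60019 S16_705, S17_715 and S18_716, the DMSO withdrawn ones S19_705, S20_715 and S21_716, and those at 35 d of DMSO S13_705, S14_715 and S15_716. Values of a group are given in this order. The labels do not say whether the numbers that end these titles stand for animals or cultures, so p-values may measure technical spread alone.

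ATM is the kinase that responds to DNA double-strand breaks and phosphorylates p53, whose target p21, the product of Cdkn1a, blocks the kinases of the cell cycle. Cells that stop dividing for good, as fibroblasts can in prolonged culture, keep such inhibitors high and mitotic genes low, and often release cytokines, proteases and matrix proteins. Loss of ATM activity is also known for mitochondrial and redox disturbance and for interferon signalling through cytosolic DNA.

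The libraries held between 23510052 and 34854026 counts in the withdrawn KU60019 group and between 21339940 and 44402601 in the KU60019 35 d group. Ribosomal RNA made up 0.0577% to 0.0971% of the counts of the withdrawn KU60019 libraries and 0.0683% to 0.178% of those at 35 d of KU60019. In the DMSO withdrawn group 2 libraries stood apart, S19_705 with 3.06% and S20_715 with 0.454% ribosomal RNA. Total and list counts of the DMSO arm below that moved by over 1.5 times without them are given both ways. The calls shared between the arms, the correlation of the arms, the genes called in opposite directions and the counts of name families were not recomputed without them. Expression is given as CPM, the counts of a gene relative to the TMM-scaled total of its library, and changes as log2 fold change ± SE. Called genes are those with an adjusted p (Benjamini-Hochberg) under 0.05 in edgeR's quasi-likelihood test.

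The fibroblast label was checked against marker genes. The 13 fibroblast markers together reached 10340 to 12922 CPM in the withdrawn KU60019 libraries, against 15729 to 16444 CPM at 35 d of KU60019, and none was at 0 counts in any of the 6. Of these markers 3 fell (Pdgfra, Col3a1 and Fbn1) and none rose. Pdgfra, a growth factor receptor of fibroblasts, stood at 177, 178 and 155 CPM in the withdrawn libraries, against 389, 303 and 321 CPM at 35 d of KU60019 (log2 fold change -0.99 ± 0.21, adjusted p = 0.00515). Vim, the vimentin gene of mesenchymal cells, stood at 2888, 2932 and 2335 CPM in the withdrawn libraries, against 3229.7, 3329 and 3218 CPM at 35 d (adjusted p = 0.38). The defining genes of leukocytes, macrophages and epithelium were at or near 0. Ptprc of leukocytes had 0 counts in the withdrawn libraries against 7 at 35 d, Adgre1 of macrophages 0 against 2, and Epcam of epithelium 1 against 7, each summed over 3 libraries. Single markers of other cell types were called. The lysosomal protein gene Cd68 stood at 27.6, 19.6 and 21.8 CPM in the withdrawn libraries, against 14.9, 13.7 and 12.5 CPM at 35 d (adjusted p = 0.00704), and the summed macrophage list at 88.6 to 124 CPM against 73 to 102 CPM. The endothelial list summed to 40.1 to 47.1 CPM in the withdrawn libraries, against 24.9 to 28.2 CPM at 35 d, with Egfl7 and Esam called higher, and Pecam1 and Cdh5 at 25 and 21 counts in all. Of the 13 tested endothelial markers 8 had a negative log2 fold change, and the list median was -0.29. The Schwann cell list summed to 469.6 to 575 CPM in the withdrawn libraries, against 549 to 703 CPM at 35 d, and 12 of its 14 tested members had a negative log2 fold change (median -0.85), while the single call, Egfl8, was higher. Sox10, the defining factor of that lineage, stood at 1, 1.55 and 4.75 CPM in the withdrawn libraries, against 1.46, 6.44 and 15.2 CPM at 35 d, which overlap. The calls of Cd68 (without S22_705, adjusted p 0.0558), Egfl7 (without S22_705, S24_716, S16_705 or S17_715, adjusted p up to 0.103), Esam (without any 1 of the 6 libraries, adjusted p up to 0.165) and Egfl8 (without S22_705, S24_716, S16_705 or S17_715, adjusted p up to 0.208) depended on single libraries. In such bulk RNA fewer cells of a type and less RNA per cell cannot be told apart, and the part of these markers in the results was not tested.

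After withdrawal of KU60019 2352 of 18684 genes had changed, which is 12.6% of those tested, with 1078 higher (5.77%) and 1274 lower (6.82%) in the withdrawn cells. At least a 2-fold change was reached by 296 of the higher genes (1.58% of the tested) and 620 of the lower ones (3.32%). The 3 libraries of the withdrawn group lay wholly above those at 35 d for 3926 genes (21%) and wholly below for 3871 genes (20.7%). Scaling by library size alone turned the split round, to 1510 higher and 728 lower, and limma on log2(TPM + 1) gave 1077 higher and 405 lower. The genes that rose had a median exon length of 2820 bases and those that fell 4557 bases, against 3494 bases for all tested genes. Length was also set against each gene's log2(CPM + 1) less its mean over all 27 libraries of the study. The Spearman correlation across genes lay between -0.245 and -0.0933 in the withdrawn libraries and between -0.127 and 0.0602 at 35 d. It moved further in the DMSO arm, from between 0.0959 and 0.353 at 35 d to between -0.218 and -0.127 after withdrawal. With the length trend removed 1293 genes were higher and 1097 lower, and the part of length in single results was not tested beyond this. The count of called genes rested on single libraries: it was 1075 without S22_705, 629 without S24_716, 659 without S16_705 and 1182 without S17_715.

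Over the same 20 days 11978 of 18684 genes (64.1%) changed in the DMSO cultures, with 5889 higher (31.5%) and 6089 lower (32.6%) in the withdrawn cells. Of the 1078 genes that rose after KU60019, 771 also rose after DMSO, 69 fell and 238 were not called. Of the 1274 that fell after KU60019, 908 fell after DMSO, 172 rose and 194 were not called. The changes of the 2 arms, which share no library, had a Pearson correlation of 0.521 and a Spearman correlation of 0.539 across the 18684 genes, which are not independent replicates. The difference between the 2 arms, fitted as an interaction, was called for 6060 genes (32.4%), 2952 with a positive (15.8%) and 3108 with a negative value (16.6%). These shares of all tested genes, and those of the KU60019 comparison above, are the reference for the list counts below. Each difference also holds the change of the DMSO cultures. Their mitosis genes summed to 185 to 258 CPM at 35 d and 2063 to 3008 CPM after withdrawal. The part of this rise in the differences was not tested. Without the 2 DMSO libraries rich in ribosomal RNA the DMSO count fell to 7381 and that of the difference to 2966. With the length trend removed 6448 genes were higher and 5151 lower in DMSO, and 2563 differences were positive and 3180 negative. The part of gene length in the DMSO changes and differences of single lists was not tested. The split of the difference was 4504 positive and 1763 negative by library size alone, with a median shift of all genes of -0.29 in the DMSO arm. It was 2862 and 3240 with RLE size factors, and 7723 and 808 with limma on log2(TPM + 1). In limma the median of all genes was -0.674 in the DMSO arm and 0.665 for the difference.

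**Figure D1:**
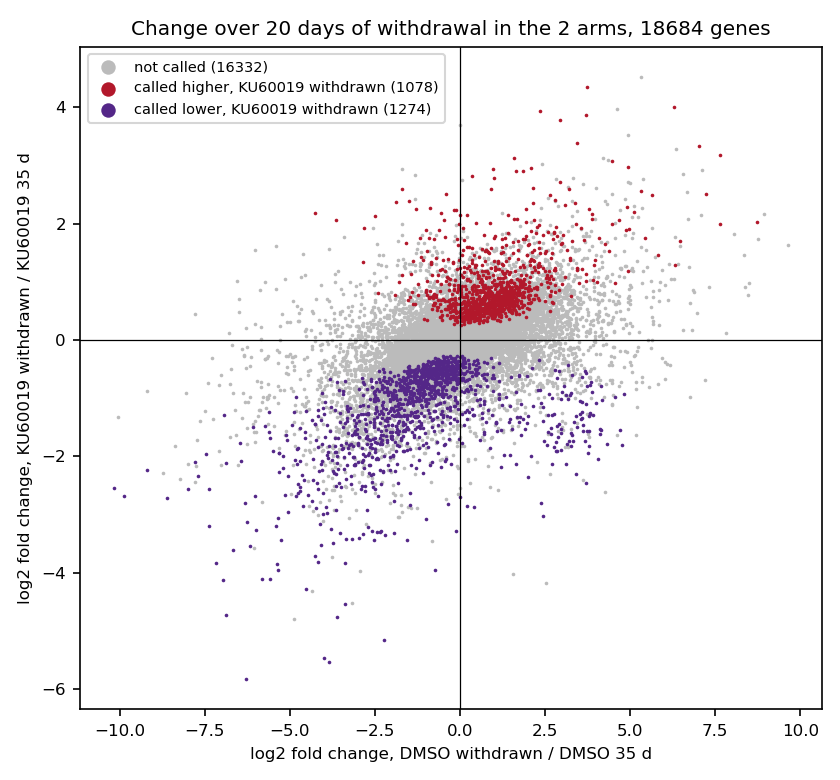
Log2 fold change over the 20 days of withdrawal in the KU60019 arm (vertical axis) against that in the DMSO arm (horizontal axis), 1 point per gene, for 18684 genes. Red points (1078) were called higher and purple points (1274) lower in withdrawn KU60019 cells, and a group of purple points lies on the right, at genes that rose in DMSO.

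The 12 largest rises after withdrawal included genes of secreted peptides, steroid synthesis and the skin barrier. Lce1g, a gene of the late cornified envelope cluster of skin, stood at 26.3, 23.6 and 24.8 CPM in the withdrawn libraries, against 1.15, 2.34 and 1.12 CPM at 35 d of KU60019 (log2 fold change 4.0 ± 0.49, adjusted p = 0.000143). In the DMSO arm it also rose, to 3.91, 1.72 and 1.67 CPM after withdrawal, against 0, 0.0314 and 0.0381 CPM at 35 d, and stayed below every withdrawn KU60019 library. Vgf, which encodes a neuropeptide precursor, reached 74.7, 57.2 and 75.8 CPM after withdrawal, against 8.96, 6.44 and 8.33 CPM at 35 d (3.13 ± 0.28, adjusted p = 3.64e-06). Its rise in DMSO cells, to 8.45, 4.77 and 3.29 CPM against 1.57, 2.1 and 1.7 CPM, was smaller, and the difference of the changes was 1.54 ± 0.40 (adjusted p = 0.00585). Cck, the gene of cholecystokinin, stood at 187, 211 and 199 CPM in the withdrawn libraries, against 19.3, 57.9 and 28.9 CPM at 35 d (2.49 ± 0.45, adjusted p = 0.00182). The rise of Cck was larger in DMSO cells, with 2080.2, 2492 and 1596 CPM after withdrawal against 36.8, 56.4 and 31.7 CPM at 35 d, and the difference was -3.13 ± 0.62 (adjusted p = 0.000671). Gal, the gene of the peptide galanin, held 12.7, 6.95 and 10.9 CPM after withdrawal, against 2.43, 1.76 and 2.71 CPM at 35 d (2.15 ± 0.52, adjusted p = 0.0104), and no DMSO library passed 1 CPM. The 3 withdrawn libraries lay above the 3 at 35 d for each of these peptides, as the rule for the largest changes required.

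Among the 12 largest rises Hsd3b6, Hsd3b3, Fgf21 and Gdf15 were not higher in the DMSO arm after withdrawal. Hsd3b6, a 3-beta-hydroxysteroid dehydrogenase, stood at 75.9, 110.3 and 72.4 CPM in withdrawn KU60019 libraries, against 7.57, 25.5 and 21.3 CPM at 35 d (2.25 ± 0.51, adjusted p = 0.00749). In the DMSO arm it fell, with 10.8, 13.3 and 16.6 CPM after withdrawal against 15.1, 51.7 and 32.6 CPM at 35 d, and the difference of the changes was 3.54 ± 0.72 (adjusted p = 0.000824). Its near copy Hsd3b3 held 6.87, 11.1 and 5.05 CPM after withdrawal, against 0.833, 2.09 and 1.5 CPM at 35 d (2.38 ± 0.51, adjusted p = 0.00517), and reads of the family may be split between copies. Fgf21, a stress-induced metabolic hormone, reached 6.06, 10.2 and 7.4 CPM in the withdrawn libraries, against 1.4, 2.29 and 1.17 CPM at 35 d (2.27 ± 0.54, adjusted p = 0.00933). Gdf15, a secreted stress cytokine, reached 57.1, 84 and 85.1 CPM, against 13.6, 21.6 and 19.1 CPM at 35 d (2.06 ± 0.30, adjusted p = 0.00037). Both hormones had positive differences between the arms, 3.17 ± 0.94 for Fgf21 (adjusted p = 0.0139, or 0.12 without the 2 DMSO libraries rich in ribosomal RNA) and 2.55 ± 0.44 for Gdf15 (adjusted p = 0.000157), and in DMSO cells Gdf15 stayed between 2.09 and 6.60 CPM. Cox6a2, the muscle form of a cytochrome c oxidase subunit, rose (2.60 ± 0.38, adjusted p = 0.000355). Upp1, uridine phosphorylase, rose (2.06 ± 0.32, adjusted p = 0.000559), with a larger rise in DMSO (difference -2.62 ± 0.54, adjusted p = 0.000922). The remaining 2 of the 12 largest rises were Npas4, an activity-induced transcription factor, at 2.25 ± 0.40, and Nxph3, a secreted neurexophilin, at 2.08 ± 0.30, with adjusted p of 0.00157 and 0.000355. Calls ended by leaving out 1 library were those of Hsd3b6 (without S16_705, adjusted p 0.0577), Fgf21 (without S16_705, adjusted p 0.0633) and Gal (without S16_705 or S17_715, adjusted p up to 0.0546).

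The 12 largest falls included genes of secreted and cell-surface proteins. A2m, the protease inhibitor alpha-2-macroglobulin, stood at 5.6, 3.57 and 3.98 CPM in the withdrawn libraries, against 42.9, 28.2 and 32.7 CPM at 35 d of KU60019 (-2.98 ± 0.57, adjusted p = 0.00264). Clec3b, a secreted lectin also called tetranectin, held 0.849, 1.09 and 0.881 CPM after withdrawal, against 13.3, 6.41 and 6.83 CPM at 35 d (-3.24 ± 0.62, adjusted p = 0.00264). Smoc2, a matricellular calcium-binding protein, held 3.43, 3.34 and 2.4 CPM after withdrawal, against 28.6, 13.2 and 14.7 CPM at 35 d (-2.64 ± 0.41, adjusted p = 0.000623). These 3 genes fell in DMSO cells too, with log2 fold changes of -4.04, -3.80 and -1.46, and none had a called difference between the arms. The adhesion gene Chl1 stood at 85.2, 37.6 and 44.7 CPM after withdrawal, against 344, 183 and 239 CPM at 35 d (-2.20 ± 0.54, adjusted p = 0.0122). In DMSO cells Chl1 came down to 1.47, 1.54 and 5.23 CPM after withdrawal, against 92.4, 105 and 115 CPM at 35 d, so that the KU60019 fall was the smaller one (difference 3.00 ± 0.78, adjusted p = 0.00624, or 0.156 without the 2 DMSO libraries rich in ribosomal RNA). The protocadherin Pcdh10 fell (-2.53 ± 0.51, adjusted p = 0.00384). The chemokine gene Cxcl13 held 1.27, 0.931 and 0.641 CPM after withdrawal, against 6.17, 5.16 and 5.15 CPM at 35 d (-2.55 ± 0.60, adjusted p = 0.0103), and had 0 counts in every DMSO withdrawn library. Serpina3m and Pcdhgc3, members of families with close copies, fell (-2.23 ± 0.55 and -3.07 ± 0.67, adjusted p = 0.0118 and 0.00611). Slfn5, an interferon-induced Schlafen gene, Ndnf, Slc25a30 and Usp33 complete the 12, at -3.27 ± 0.87, -2.50 ± 0.66, -2.47 ± 0.70 and -2.29 ± 0.65. For Slfn5 the 35 d libraries themselves ranged from 2.57 to 17.6 CPM. Leaving out 1 of 3 libraries, S22_705 or S24_716 or S16_705, ended the calls of these 4, with adjusted p up to 0.159, 0.109, 0.174 and 0.181. The same held for Chl1 (without S24_716 or S16_705, adjusted p up to 0.0783), Serpina3m (without S24_716 or S16_705, adjusted p up to 0.0849) and Cxcl13 (without S24_716, adjusted p 0.074).

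Genes of mitosis fell after withdrawal. Of 25 tested genes of mitosis 20 fell and none rose, with a median log2 fold change of -1.29, against a median of 0.00118 over all 18684 genes. Mki67, the proliferation antigen gene, stood at 3.32, 4.81 and 2.94 CPM in the withdrawn libraries, against 8.99, 13.7 and 9.5 CPM at 35 d of KU60019 (log2 fold change -1.55 ± 0.25, adjusted p = 0.000803). Top2a, the topoisomerase of mitotic chromosomes, held 7.68, 10.6 and 6.97 CPM after withdrawal, against 21.1, 29.2 and 19.6 CPM at 35 d (-1.47 ± 0.24, adjusted p = 0.000751). In both genes every withdrawn library lay below every library at 35 d. Ccnb1, the mitotic cyclin B1, held 0.695, 1.9 and 1.28 CPM after withdrawal, against 3.92, 4.46 and 2.81 CPM at 35 d (-1.54 ± 0.28, adjusted p = 0.00203). Cenpf, a kinetochore protein, and Foxm1, the transcription factor of mitotic genes, fell (-1.83 ± 0.29 and -1.60 ± 0.27, adjusted p = 0.000751 and 0.0011). Leaving out S24_716 gave 10 falls and S22_705 gave 12, and the other single libraries 14 to 20. In limma on log2(TPM + 1), where low values are compressed, 7 fell.

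The DMSO cultures moved the other way over the same days. Mki67 stood at 480.1, 357 and 338 CPM in DMSO withdrawn libraries, against 13.9, 19.2 and 11.8 CPM at 35 d of DMSO (4.71 ± 0.27, adjusted p = 1.48e-11), a level that no KU60019 library of either time approached. In DMSO 24 of the 25 mitotic genes rose and the list median was 3.57. The difference of the changes was negative and called for all 25, with a median of -4.93, and for Mki67 it was -6.26 ± 0.36 (adjusted p = 5.86e-11). The summed level of the list was 81.2 to 107 CPM in the withdrawn KU60019 libraries and 162 to 218 CPM at 35 d of KU60019, and in DMSO 2063 to 3008 CPM after withdrawal and 185 to 258 CPM at 35 d. Ska1, a kinetochore gene outside the list, fell in KU60019 cells (-1.80 ± 0.43, adjusted p = 0.0096, lost without S24_716 or S17_715) and had a difference between the arms of -6.54 ± 0.55 (adjusted p = 1.40e-08).

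Promoters of many mitotic genes carry CCAAT boxes, and those of Top2a and Ccnb1 are shown as examples from the genes that fell, with no overlap between their groups. Each runs from 250 bases before to 50 bases after the annotated start, 5′ to 3′ on the gene's strand, from RefSeq on GRCm38.p6, with CCAAT or its reverse complement ATTGG in capitals.
Top2a (chr11:99024140-99024439, minus strand): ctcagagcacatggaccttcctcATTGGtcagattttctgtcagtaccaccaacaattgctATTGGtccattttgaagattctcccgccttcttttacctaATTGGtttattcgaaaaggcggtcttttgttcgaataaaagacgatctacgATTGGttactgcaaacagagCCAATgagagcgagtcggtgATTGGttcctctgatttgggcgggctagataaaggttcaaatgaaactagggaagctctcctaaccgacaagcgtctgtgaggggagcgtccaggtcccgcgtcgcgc
Ccnb1 (chr13:100786437-100786736, minus strand): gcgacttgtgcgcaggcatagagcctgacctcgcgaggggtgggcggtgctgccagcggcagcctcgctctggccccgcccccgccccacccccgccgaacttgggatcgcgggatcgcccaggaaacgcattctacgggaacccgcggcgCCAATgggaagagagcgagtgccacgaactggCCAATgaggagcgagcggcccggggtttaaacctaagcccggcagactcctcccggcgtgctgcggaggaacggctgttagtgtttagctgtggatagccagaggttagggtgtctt
The 5 letters CCAAT occurred on either strand of 10248 of 27025 promoters of this length (37.9%), in 18 of the 20 found for the 25 tested list members, and in 15 of the 16 found for the 20 that fell. In the Top2a promoter 6 matches began between -227 and -58 from the start, and in that of Ccnb1 2 matches began at -99 and -67. A match describes the letters and shows no binding.

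Genes of DNA replication followed mitosis with smaller changes. Of 32 tested, 8 fell and none rose, and the list median was -0.33, while limma on log2(TPM + 1) called 1 fall. Rrm2, the regulated subunit of ribonucleotide reductase, held 5.21, 8.73 and 5.05 CPM after withdrawal, against 17.4, 20.3 and 16.7 CPM at 35 d (-1.52 ± 0.25, adjusted p = 0.000803). Mcm6, a subunit of the replicative helicase, held 9.49, 12.9 and 9.93 CPM after withdrawal, against 15.6, 15.6 and 15.6 CPM at 35 d (-0.54 ± 0.13, adjusted p = 0.00972). The count fell to 3 without S22_705 or S17_715 and to 2 without S24_716. In DMSO 31 of the 32 rose, and the difference was negative and called for 31. Among the DNA repair genes Rad54l, of homologous recombination, fell (-1.06 ± 0.22, adjusted p = 0.00384). Atr, the kinase related to ATM that responds to stalled replication, rose to 11.9, 11.2 and 15.4 CPM, against 8.29, 7.78 and 8.61 CPM at 35 d (0.64 ± 0.14, adjusted p = 0.00481), and it rose in DMSO too (0.60 ± 0.14, difference 0.04 ± 0.19, adjusted p = 0.894). Atm itself stood at 1.43, 1.86 and 1.71 CPM after withdrawal, against 3.56, 2.2 and 2.01 CPM at 35 d (-0.65 ± 0.43, adjusted p = 0.326), and since the drug acts on the kinase its RNA level checks no label. Single left-out libraries ended the call of Mcm6 (without S22_705 or S24_716, adjusted p up to 0.074).

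The cell cycle inhibitor Cdkn1a, the p21 gene, rose after withdrawal. It stood at 804, 746 and 731 CPM in withdrawn KU60019 libraries, against 378, 401 and 427 CPM at 35 d (0.92 ± 0.18, adjusted p = 0.00287). The lowest withdrawn library lay well above the highest at 35 d. In DMSO cells Cdkn1a rose as well, to 639, 423 and 427 CPM, against 257, 238 and 225 CPM at 35 d (1.05 ± 0.18, adjusted p = 3.31e-05), and the difference of the changes was -0.13 ± 0.25 (adjusted p = 0.723). Cdkn2a, which encodes p16 and p19ARF, held 88.6, 99.7 and 90.7 CPM after withdrawal, against 54.9, 54.6 and 51.2 CPM at 35 d (0.80 ± 0.31, adjusted p = 0.0922), without overlap but short of the threshold, which it passed with only the compared groups in the fit (adjusted p = 0.00292). Cdkn2b, the p15 gene, was likewise not called in KU60019 cells (0.28 ± 0.16, adjusted p = 0.248), whereas it rose in DMSO and the difference was -0.74 ± 0.22 (adjusted p = 0.0157). That difference was not called without the 2 DMSO libraries rich in ribosomal RNA (adjusted p = 0.257), by library size alone or in limma on log2(TPM + 1). The p27 gene Cdkn1b fell to 36.6, 37 and 38.3 CPM, against 63.4, 52.6 and 57.7 CPM at 35 d (-0.63 ± 0.12, adjusted p = 0.00255). The p18 gene Cdkn2c and the retinoblastoma relative Rbl2 fell (-1.22 ± 0.28 and -1.25 ± 0.28, adjusted p = 0.00733 and 0.00675), and both lost the call without S24_716 (adjusted p = 0.0656 and 0.060).

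More targets of p53 rose than fell. Of 34 tested, 5 rose and 1 fell, with a median of 0.25, against 5.77% and 6.82% of all tested genes. At an unadjusted p under 0.05 edgeR had 14 higher and 3 lower. DESeq2 called 8 higher and 2 lower, and limma on log2(TPM + 1) 8 higher and none lower. With the length trend removed 8 rose, Mdm2 among them. In DMSO 16 rose and 11 fell, or 13 and 8 without the 2 libraries rich in ribosomal RNA. The DMSO shares of all tested genes were 31.5% and 32.6%. The targets called higher in KU60019 cells were Cdkn1a, Gdf15, Psrc1, Cd80 and Aen. Psrc1, a microtubule-binding protein, held 123, 109 and 139.5 CPM after withdrawal, against 70.6, 72.7 and 79.9 CPM at 35 d (0.74 ± 0.13, adjusted p = 0.00166). The costimulatory ligand gene Cd80 rose (1.07 ± 0.22, adjusted p = 0.00472) as did the nuclease gene Aen (0.54 ± 0.16, adjusted p = 0.0287). Mdm2, the p53 antagonist, held 109.9, 144 and 128 CPM, against 107, 106 and 98.1 CPM at 35 d (0.30 ± 0.13, adjusted p = 0.12), and was not called. Sesn1, a stress sensor that p53 induces, fell (-0.54 ± 0.16, adjusted p = 0.0341). Leaving out single libraries ended the calls of Aen (without S22_705, S24_716, S16_705 or S17_715, adjusted p up to 0.113) and Sesn1 (without any 1 of the 6 libraries, adjusted p up to 0.154). Trp53 itself stood at 44, 45.7 and 27.8 CPM after withdrawal, against 41.7, 39.9 and 33.6 CPM at 35 d (0.03 ± 0.25, adjusted p = 0.956), with overlap. Lmnb1, the lamin B1 gene, whose loss marks senescent cells, was low at both times, at 5.17, 6.05 and 4.22 CPM after withdrawal against 6.64, 6.33 and 5.38 CPM at 35 d (-0.26 ± 0.18, adjusted p = 0.349), while DMSO withdrawn libraries held 48.5, 59.7 and 76.7 CPM against 13.6, 13.8 and 12.7 CPM at 35 d of DMSO.

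**Figure D2:**
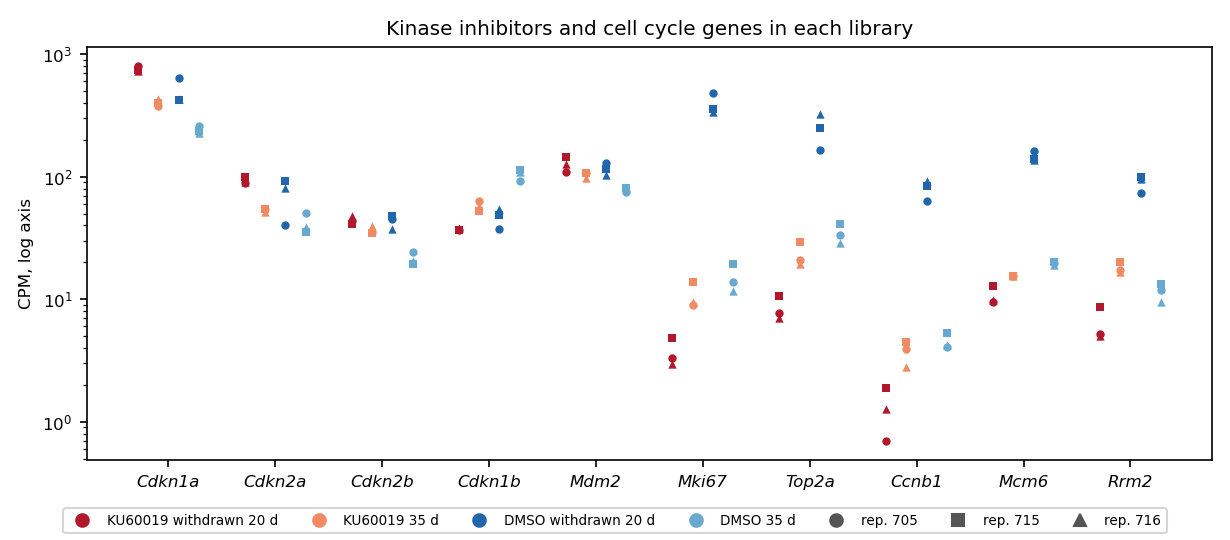
CPM (log axis) of 5 regulators on the left and 5 cell cycle genes on the right in each library, from left to right withdrawn KU60019, KU60019 35 d, DMSO withdrawn and DMSO 35 d, with marker shapes for the replicate numbers. Cdkn1a was higher after withdrawal in both arms, while Mki67, Top2a, Ccnb1, Mcm6 and Rrm2 were lower after withdrawal of KU60019 and higher after withdrawal of DMSO.

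Interferon-response genes fell. Of 43 tested 18 fell and none rose, with a list median of -0.83. All withdrawn libraries lay below all 35 d libraries for 32 of them, and for 20.7% of all tested genes. Irgm2, an immunity-related GTPase, stood at 8.14, 11.2 and 8.01 CPM after withdrawal, against 31.5, 29 and 25.4 CPM at 35 d of KU60019 (-1.65 ± 0.31, adjusted p = 0.0026). Gbp3, a guanylate-binding protein, held 6.56, 9.89 and 6.22 CPM after withdrawal, against 22.2, 29.8 and 22.5 CPM at 35 d (-1.72 ± 0.34, adjusted p = 0.00368). Gbp2 of the same family held 11.1, 13.2 and 7.1 CPM after withdrawal, against 28.5, 28.3 and 19.8 CPM at 35 d (-1.29 ± 0.29, adjusted p = 0.00728). In all 3 genes the groups were separate, with the highest withdrawn value in S23_715. Iigp1, another such GTPase, fell (-1.66 ± 0.41, adjusted p = 0.0118), and the signal transducers Stat2 and Irf9 were among the 18. In the DMSO arm 20 members fell and 2 rose with a median of -0.56, against 13 and none with a median of -0.83 without the 2 libraries rich in ribosomal RNA, and 1 member had a called difference between the arms in either fit. The level was not equal in the arms, since the list summed to 1413 to 1552 CPM in withdrawn KU60019 libraries and 1728 to 2213 CPM at 35 d of KU60019, and in DMSO to 932 to 1044 CPM after withdrawal and 847 to 1393 CPM at 35 d. The count of fallen members was 2 without S24_716, 6 without S22_705, 7 without S16_705 and 5 without S17_715. A left-out library ended the calls of Gbp2 (without S24_716, adjusted p 0.0687) and Iigp1 (without S24_716 or S16_705, adjusted p up to 0.074).

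Promoters of Irgm2 and Gbp2 are shown for the interferon-stimulated response element, searched on both strands as a pair of GAAA separated by any 2 bases and capitalised where found.
Irgm2 (chr11:58214727-58215026, plus strand): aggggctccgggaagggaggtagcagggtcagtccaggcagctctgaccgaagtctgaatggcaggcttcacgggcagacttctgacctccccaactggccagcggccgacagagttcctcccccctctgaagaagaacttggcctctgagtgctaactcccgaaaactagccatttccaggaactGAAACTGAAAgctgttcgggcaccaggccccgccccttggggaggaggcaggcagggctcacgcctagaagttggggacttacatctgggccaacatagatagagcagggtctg
Gbp2 (chr3:142620413-142620712, plus strand): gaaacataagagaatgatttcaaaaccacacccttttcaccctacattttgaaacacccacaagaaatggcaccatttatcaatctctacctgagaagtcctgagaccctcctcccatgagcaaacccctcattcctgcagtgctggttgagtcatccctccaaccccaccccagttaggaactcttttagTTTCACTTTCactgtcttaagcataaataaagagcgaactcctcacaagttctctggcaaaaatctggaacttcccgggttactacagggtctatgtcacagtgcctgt
The element was present in 943 of 27025 promoters (3.49%), in 19 of the 30 found for the 43 tested list members and in 10 of the 13 found for the 18 that fell. In Irgm2 it began at -64 and in Gbp2 at -59 from the start.

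Most of the cytokine and complement genes that were called fell. Of 24 tested cytokine and chemokine genes 6 fell and 1 rose. The rise was in Il11, a cytokine of the interleukin-6 family that acts on fibroblasts, at 29, 23.2 and 34.1 CPM after withdrawal, against 9.84, 8.84 and 9.17 CPM at 35 d (1.63 ± 0.32, adjusted p = 0.00297). It rose in DMSO too (1.36 ± 0.31), and the difference of the changes was 0.27 ± 0.44 (adjusted p = 0.658). Cxcl12, the most abundant chemokine gene here by CPM, held 1114, 969 and 855 CPM after withdrawal, against 3011, 1794 and 2235 CPM at 35 d (-1.26 ± 0.31, adjusted p = 0.0122). Cxcl5, a neutrophil chemokine, held 4.82, 3.49 and 4.22 CPM after withdrawal, against 22.4, 14.9 and 14.1 CPM at 35 d (-2.04 ± 0.46, adjusted p = 0.00735), while its DMSO values of 19.7, 15.3 and 28.6 CPM after withdrawal and 24.8, 26.2 and 33 CPM at 35 d overlapped. The alarmin gene Il33 fell in KU60019 cells (-1.28 ± 0.35, adjusted p = 0.0202). In DMSO it came down to 0.419, 0.574 and 1.05 CPM after withdrawal, against 76.8, 96.7 and 91.1 CPM at 35 d (-6.94 ± 0.49, difference 5.65 ± 0.58, adjusted p = 2.33e-07). Il6, the canonical senescence cytokine, stood at 89.4, 116 and 59.9 CPM after withdrawal, against 257, 89.3 and 133 CPM at 35 d (-0.85 ± 0.62, adjusted p = 0.369), with overlap, whereas in DMSO it fell to 3.14, 7.33 and 16 CPM, against 319, 202 and 446 CPM at 35 d. Of the 24 cytokine and chemokine genes 4 rose and 11 fell in DMSO, or 2 and 7 without the 2 libraries rich in ribosomal RNA. Of 12 complement genes 6 fell after KU60019, with a median of -0.95. In DMSO 10 of the 12 fell and none rose, with a median of -2.64. For complement 7 differences of the changes were positive and called, or 2 without the 2 libraries rich in ribosomal RNA, and none was negative. Cfb, factor B of the alternative pathway, was low and fell in KU60019 cells (-3.45 ± 0.75, adjusted p = 0.00611). No complement gene was called by edgeR without S16_705 or without S24_716, where 7 were lower at an unadjusted p under 0.05 in each case, and 3 were without S23_715. Cytokine falls numbered 2 without S16_705 and 1 without S24_716. Leaving out 1 library ended the calls of Cxcl12 (without S24_716 or S16_705, adjusted p up to 0.0865), Il33 (without S23_715, S24_716 or S16_705, adjusted p up to 0.188) and Cfb (without S24_716 or S16_705, adjusted p up to 0.0558).

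Genes of the ATF4 response, which senses amino acid shortage and mitochondrial or endoplasmic reticulum stress, rose. Of 20 tested 11 rose and none fell, with a median of 0.78. Gdf15, also counted with the p53 targets, was among those that rose. Phgdh, the first enzyme of serine synthesis, stood at 70.5, 90.0 and 78.6 CPM after withdrawal, against 28.1, 44.6 and 32.2 CPM at 35 d of KU60019 (1.19 ± 0.20, adjusted p = 0.000931). Trib3, a pseudokinase that restrains ATF4, held 63.7, 98.2 and 70.3 CPM after withdrawal, against 23.1, 43.2 and 31.4 CPM at 35 d (1.25 ± 0.24, adjusted p = 0.0030). Asns, asparagine synthetase, held 171, 206 and 176 CPM after withdrawal, against 76.4, 99.8 and 93.7 CPM at 35 d (1.04 ± 0.24, adjusted p = 0.00738). All withdrawn values of the 3 genes lay above those at 35 d. Shmt2, of mitochondrial one-carbon metabolism, and Slc3a2, of an amino acid carrier, rose (0.78 ± 0.14 and 0.62 ± 0.13, adjusted p = 0.00154 and 0.00408). In DMSO 10 members rose and 2 fell, and differences were called for 4 upward and 2 downward. Without the 2 DMSO libraries rich in ribosomal RNA 6 rose and 1 fell, and differences were called for 1 upward and 2 downward. Of all tested genes in the full fit 31.5% rose and 32.6% fell in DMSO. The difference was positive for 15.8% and negative for 16.6% of all tested genes, and the counts of differences in this list lay near these shares. The difference of Slc3a2 exceeded its rise in KU60019 cells, so that it had no rise in DMSO (difference 0.70 ± 0.18, adjusted p = 0.0057, or 0.0904 without the 2 DMSO libraries rich in ribosomal RNA). The rises of Phgdh and Shmt2 were smaller than in DMSO (difference -1.44 ± 0.28 and -1.44 ± 0.20, adjusted p = 0.000501 and 1.03e-05). Without S16_705, the library lowest for this list, 5 members rose, and the call of Asns was lost (adjusted p = 0.0584).

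Promoters of Asns and Fgf21 are shown because both genes rose and hold a C/EBP-ATF response element, searched as TGATGNAA on both strands and written in capitals.
Asns (chr6:7693160-7693459, minus strand): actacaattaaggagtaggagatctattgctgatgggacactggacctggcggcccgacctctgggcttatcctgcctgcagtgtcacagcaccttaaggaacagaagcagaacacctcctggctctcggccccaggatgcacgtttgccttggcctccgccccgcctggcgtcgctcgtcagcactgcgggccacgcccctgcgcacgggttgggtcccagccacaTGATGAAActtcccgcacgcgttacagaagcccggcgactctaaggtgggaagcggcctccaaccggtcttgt
Fgf21 (chr7:45615441-45615740, minus strand): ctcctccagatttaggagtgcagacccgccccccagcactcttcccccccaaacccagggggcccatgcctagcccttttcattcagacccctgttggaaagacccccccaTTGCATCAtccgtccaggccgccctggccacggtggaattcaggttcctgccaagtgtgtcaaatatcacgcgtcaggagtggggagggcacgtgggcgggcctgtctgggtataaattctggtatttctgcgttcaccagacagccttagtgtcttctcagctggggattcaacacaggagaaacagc
The element occurred in 1096 of 27025 promoters (4.06%), in 6 of 19 promoters of the tested members and in 4 of 10 of those that rose, namely Trib3, Asns, Fgf21 and Chac1. It began at -23 in Asns and at -139 in Fgf21. For the other 6 these letters are not in the window.

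Of 17 tested chaperones of the endoplasmic reticulum 5 rose and none fell, with a median of 0.34. Hspa5, the chaperone BiP, held 1721, 2610.4 and 1527 CPM after withdrawal, against 1058, 1463 and 1014 CPM at 35 d (0.73 ± 0.22, adjusted p = 0.0348). In DMSO Hspa5 fell, to 557, 801 and 895 CPM, against 1429.5, 1177 and 1277 CPM at 35 d, and the difference was 1.51 ± 0.31 (adjusted p = 0.00092). Hsp90b1, the chaperone GRP94, and the disulfide isomerase Pdia6 rose (0.56 ± 0.12 and 0.62 ± 0.14, adjusted p = 0.0050 and 0.00808). In DMSO 5 chaperones rose and 9 fell, and differences of the changes were positive for 6 and negative for none. Without the 2 DMSO libraries rich in ribosomal RNA none rose and 3 fell in DMSO, and 1 difference was called. Of all tested genes in the full fit 31.5% rose and 32.6% fell in DMSO, and the count of risen chaperones lay near that share. The difference was positive for 15.8% and negative for 16.6% of all tested genes. The count in KU60019 cells was 1 without S16_705 and 3 without S18_716, S22_705 or S23_715. Calls lost on leaving out 1 library were those of Hspa5 (without S22_705, S23_715, S16_705 or S18_716, adjusted p up to 0.16) and Pdia6 (without S16_705, adjusted p 0.0559).

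Genes of cholesterol and fatty acid synthesis, the targets of SREBP factors, fell. Of 29 tested 13 fell and none rose, with a median of -0.38. The withdrawn libraries lay wholly below those at 35 d for 20 of them, and for 20.7% of all tested genes. Scd2, a stearoyl-CoA desaturase, stood at 211, 191 and 168 CPM after withdrawal, against 494, 458 and 419 CPM at 35 d of KU60019 (-1.27 ± 0.16, adjusted p = 0.000176). Insig1, the sterol-regulated retention protein, held 37.6, 39.1 and 40.3 CPM after withdrawal, against 87.2, 72.4 and 78.4 CPM at 35 d (-1.02 ± 0.15, adjusted p = 0.000321). Hmgcs1, the synthase that starts the mevalonate pathway, held 34.5, 36.5 and 40.6 CPM after withdrawal, against 75.1, 63.1 and 74.7 CPM at 35 d (-0.93 ± 0.16, adjusted p = 0.00105). The groups of all 3 were apart in every library. In DMSO 20 of the 29 rose and 4 fell, or 17 and none without the 2 libraries rich in ribosomal RNA, and the difference was negative and called for 24, or 18 without those libraries, with -2.07 ± 0.22 for Hmgcs1 (adjusted p = 4.47e-07) and -1.52 ± 0.21 for Insig1 (adjusted p = 1.00e-05). With each library left out in turn 9 to 14 members fell.

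RNAs encoded by the mitochondrial genome fell as well. Of 13 tested 8 fell and none rose, with a median of -1.23, and the share of all counts they took was 2.85% to 3.21% in the withdrawn KU60019 libraries against 4.97% to 6.45% at 35 d. The cytochrome b gene mt-Cytb stood at 1465, 1596 and 1270.5 CPM after withdrawal, against 4532, 4616 and 4159 CPM at 35 d (-1.62 ± 0.20, adjusted p = 0.000147). The oxidase subunit mt-Co2 held 2150.0, 2017 and 1941 CPM after withdrawal, against 4438, 5702 and 4765 CPM at 35 d (-1.29 ± 0.18, adjusted p = 0.000272). At 35 d of DMSO the share was 1.56% to 1.69%, so the withdrawn KU60019 cells lay between the other 2 groups. In DMSO 10 of these RNAs rose and 1 fell, and 12 had a negative called difference, with -2.33 ± 0.28 for mt-Cytb (adjusted p = 2.42e-06). The DMSO withdrawn library richest in ribosomal RNA, S19_705, also held the highest mitochondrial share of its group, 3.61% against 1.94% and 1.77%, and without both libraries rich in ribosomal RNA 7 of these RNAs rose in DMSO and 8 differences were called. Nuclear genes of the respiratory chain did not follow: 4 of 32 rose and none fell, with a median of 0.45. In DMSO 24 of the 32 rose and 1 fell, with a median of 0.84, or 18 and none without those libraries. The difference was negative and called for 11, or 1 without those libraries, and positive for none. Cycs, cytochrome c, rose in KU60019 cells (0.77 ± 0.12, adjusted p = 0.000745) and so did Ndufa4, an oxidase subunit (0.83 ± 0.18, adjusted p = 0.0052). The mitochondrial count was 5 without S22_705 or S24_716 or S16_705 or S17_715. The nuclear count was 2 without any 1 of these same libraries and 8 without S23_715, 11 by library size alone or in DESeq2, 16 with only the compared groups in the fit, 10 in limma on log2(TPM + 1) and 4 with RLE size factors.

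**Figure D3:**
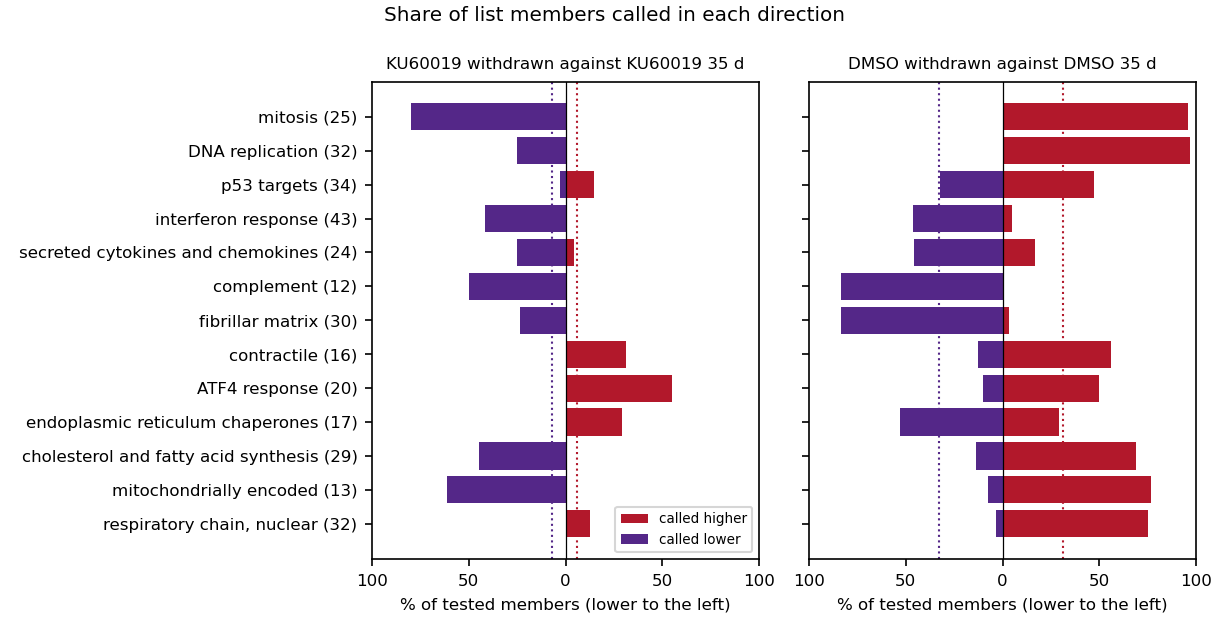
Share of the tested members of 13 gene lists (number tested in parentheses) called higher (red, to the right) or lower (purple, to the left), for withdrawn KU60019 against KU60019 35 d on the left and for withdrawn DMSO against DMSO 35 d on the right. Dotted lines mark the share of all 18684 genes called in each direction, 5.77% and 6.82% in the KU60019 arm and 31.5% and 32.6% in the DMSO arm.

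Matrix genes fell less in the KU60019 arm than in the DMSO arm. Of 30 genes of the fibrillar matrix 7 fell and none rose after KU60019, with a median of -0.29. limma on log2(TPM + 1) called 2 falls, library size alone and no filter 4 each, and with the length trend removed 6 fell with a median of -0.13. Col3a1, the type III collagen chain, stood at 1897, 2174 and 1843 CPM after withdrawal, against 4714, 4226 and 5269 CPM at 35 d of KU60019 (-1.26 ± 0.34, adjusted p = 0.0204). Ogn, the small proteoglycan osteoglycin, held 223, 219.7 and 212 CPM after withdrawal, against 836, 568 and 631 CPM at 35 d (-1.64 ± 0.29, adjusted p = 0.00133). Col14a1, a collagen of fibril surfaces, fell (-1.5 ± 0.42, adjusted p = 0.0241). In DMSO 25 of the 30 fell, and 16 differences were positive and called, among them 3.46 ± 0.41 for Ogn, 4.58 ± 0.62 for Col14a1 and 2.72 ± 0.49 for Col3a1 (adjusted p = 1.59e-06, 1.12e-05 and 0.000238). Without the 2 DMSO libraries rich in ribosomal RNA 20 fell in DMSO and 9 differences were called. Dcn, decorin, overlapped between the KU60019 groups, at 1822, 1404 and 1402 CPM after withdrawal against 2703, 1704 and 2032 CPM at 35 d, whereas it dropped in DMSO to 42.7, 98.1 and 164 CPM, against 2089, 1431 and 1576 CPM at 35 d (difference 3.59 ± 0.60, adjusted p = 0.000116). Lama5, a laminin chain, was the single basement membrane gene of 15 to be called, rising to 140.4, 95.4 and 140.1 CPM, against 64.4, 49.8 and 71.1 CPM at 35 d (1.02 ± 0.21, adjusted p = 0.00465), while it fell in DMSO (difference 1.71 ± 0.30, adjusted p = 0.000203). Every single library moved the fibrillar matrix count, to 1 without S16_705 or S24_716, 3 without S22_705 and 4 without each of the others. The calls of Col3a1 (without S22_705, S24_716, S16_705 or S18_716, adjusted p up to 0.0984) and Col14a1 (without S23_715, S24_716 or S16_705, adjusted p up to 0.171) depended on single libraries.

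Contractile genes, those of smooth muscle and myofibroblasts, rose in 5 of 16 cases and fell in none, with a median of 0.68. Cnn1, calponin, stood at 86.1, 129 and 152 CPM after withdrawal, against 21.5, 46.8 and 49.4 CPM at 35 d of KU60019 (1.64 ± 0.37, adjusted p = 0.0073). Acta2, the smooth muscle actin gene, held 1223, 1608 and 1773 CPM after withdrawal, against 584, 1005 and 1056 CPM at 35 d (0.80 ± 0.25, adjusted p = 0.0424, or 0.0524 with the replicate number as a block). For both genes S22_705 was the lowest withdrawn library and S16_705 the lowest at 35 d. Myl9, a myosin light chain, rose (1.00 ± 0.25, adjusted p = 0.014). DMSO cells held more at both times, with Acta2 at 10757, 5523 and 5298 CPM after withdrawal and 2706, 2420.4 and 2066 CPM at 35 d. Of the contractile genes 9 rose and 2 fell in DMSO, or 8 and 1 without the 2 libraries rich in ribosomal RNA. The DMSO shares of all tested genes in the full fit were 31.5% risen and 32.6% fallen. No contractile gene was called by edgeR without S16_705, where 9 were higher and 1 lower at an unadjusted p under 0.05, 1 was without S24_716, 2 were without S17_715 and 3 without S23_715. Among the genes named, single libraries ended the calls of Cnn1 (without S16_705, adjusted p 0.0597), Acta2 (without S23_715, S24_716, S16_705 or S17_715, adjusted p up to 0.24) and Myl9 (without S24_716, S16_705 or S17_715, adjusted p up to 0.105).

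**Figure D4:**
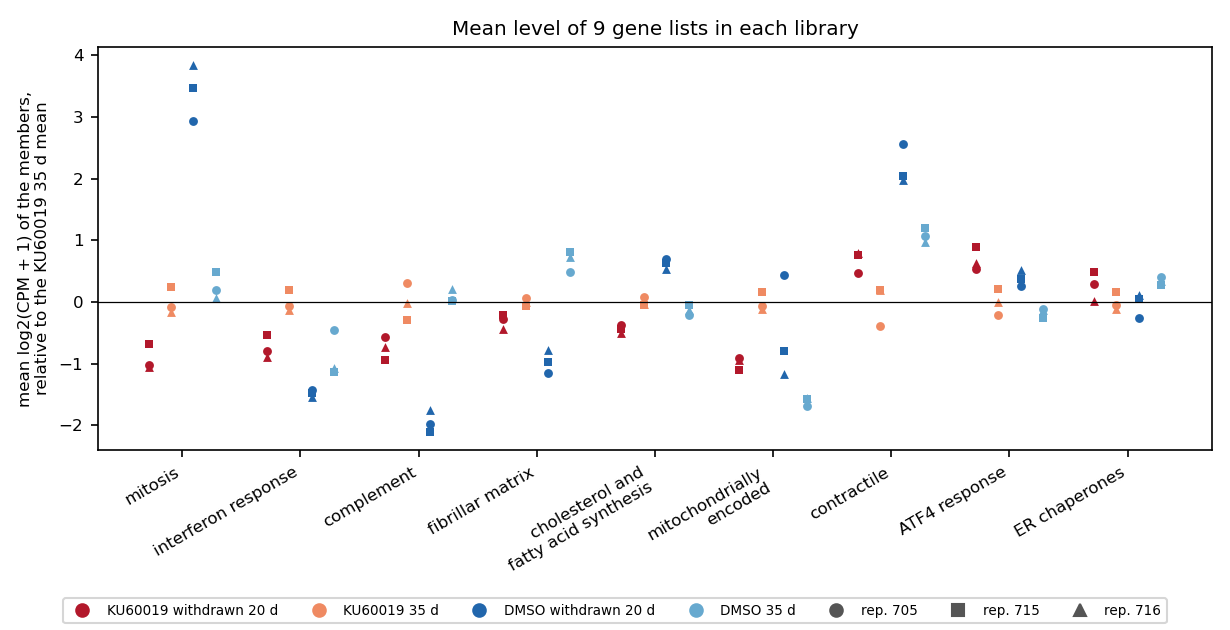
Mean of log2(CPM + 1) over the tested members of 9 gene lists in each library, relative to the mean of the KU60019 35 d libraries, from left to right withdrawn KU60019, KU60019 35 d, DMSO withdrawn and DMSO 35 d. Withdrawn KU60019 libraries lie below those at 35 d for the first 6 lists and above them for contractile and ATF4 response genes, while for chaperones S24_716 lies among the 35 d libraries.

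Growth factor genes of the TGF-beta family moved in both directions. Tgfb3 rose to 196, 174 and 169 CPM after withdrawal, against 96.1, 101 and 101 CPM at 35 d (0.85 ± 0.17, adjusted p = 0.00384), and Tgfb2 fell to 19.2, 17.8 and 15.4 CPM, against 33.1, 23.9 and 31.6 CPM at 35 d (-0.76 ± 0.20, adjusted p = 0.0155). The call of Tgfb2 ended without S24_716 or S16_705 (adjusted p up to 0.0984). In DMSO both fell, and the differences were 1.43 ± 0.24 for Tgfb3 and 2.07 ± 0.29 for Tgfb2 (adjusted p = 0.00014 and 1.41e-05). Of 17 genes of TGF-beta and YAP signalling 2 rose and 3 fell. Igfbp5, an IGF carrier, fell (-1.31 ± 0.29, adjusted p = 0.00645), and of 17 growth factor binding and related genes 2 rose and 3 fell. Sfrp2, a secreted WNT antagonist, fell (-1.94 ± 0.39, adjusted p = 0.0036), and of 22 WNT and BMP modulators 1 rose and 4 fell. Bmp3, a bone morphogenetic protein that antagonises others, was not called, at 60.1, 40.9 and 39.2 CPM after withdrawal against 78.1, 51.5 and 82.8 CPM at 35 d, while DMSO withdrawn libraries held 0.628, 0.706 and 0.504 CPM against 80.7, 78.5 and 79.3 CPM at 35 d of DMSO (difference 6.42 ± 0.44, adjusted p = 5.19e-10). Adamtsl2, a microfibril-associated protein gene, had the largest positive difference the rule named, 8.22 ± 1.24 (adjusted p = 3.86e-05), at 36.5, 35.7 and 46.9 CPM after withdrawal against 27.4, 24.3 and 36.2 CPM at 35 d of KU60019, and in DMSO at 0.209, 0.0441 and 0.194 CPM against 25, 31 and 41 CPM. The most negative one was that of Prl2c3, a proliferin, -7.50 ± 1.19 (adjusted p = 6.52e-05), which has near-identical copies and is uncertain.

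The counts of the remaining lists are given against 5.77% risen and 6.82% fallen of all tested genes. Of 32 lysosomal genes 1 rose and 3 fell, among them Lamp2, a lysosomal membrane protein, at -0.62 ± 0.11 (adjusted p = 0.0011). Of 21 oxidative stress genes 3 rose and none fell, among them the quinone reductase gene Nqo1 at 0.75 ± 0.22 (adjusted p = 0.0334), less than in DMSO (difference -2.52 ± 0.32, adjusted p = 4.85e-06). Of 23 glycolysis and hypoxia genes 3 fell, among them Ndrg1 at -0.86 ± 0.13 and the pyruvate dehydrogenase kinase gene Pdk1 at -0.63 ± 0.11 (adjusted p = 0.000483 and 0.00145). Akr1c18, a steroid reductase, was 1 of 3 risen among 11 genes of the proliferin group, at 15.2, 17.6 and 12.4 CPM after withdrawal against 2.45, 6.05 and 2.85 CPM at 35 d (1.99 ± 0.44, adjusted p = 0.0068), and rose far more in DMSO (difference -5.66 ± 0.72, adjusted p = 5.02e-06). Of 14 imprinted genes the noncoding RNAs Meg3 and Mirg rose (0.73 ± 0.21 and 1.16 ± 0.24), and Peg3 and H19 fell (-0.95 ± 0.27 and -1.58 ± 0.49), with adjusted p of 0.0248, 0.00429, 0.025 and 0.0402. Of 26 protease genes 1 rose and 2 fell. Several calls ended with 1 library left out, those of Nqo1 (without S22_705, S23_715, S24_716, S16_705 or S18_716, adjusted p up to 0.174), Akr1c18 (without S16_705, adjusted p 0.0578), Meg3 (without S22_705, S23_715, S24_716, S16_705 or S18_716, adjusted p up to 0.167), Peg3 (without S22_705, S24_716, S17_715 or S18_716, adjusted p up to 0.0984), H19 (without S22_705, S24_716, S16_705, S17_715 or S18_716, adjusted p up to 0.168) and Wt1 (without S24_716 or S16_705, adjusted p up to 0.073). The 7 tested mesothelial markers held 1 call, Wt1, which fell (-1.64 ± 0.38, adjusted p = 0.00884). edgeR called no member among 14 antigen presentation genes, 15 immediate early genes, 22 lung mesenchyme transcription factors, or the markers of neurons, epithelium, pericytes, adipocytes and chondrocytes. In these 8 lists 5 of 87 tested genes were higher and 13 lower at an unadjusted p under 0.05, DESeq2 called 1 higher and 3 lower, and limma on log2(TPM + 1) called 2 higher and 1 lower.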

How the data were processed

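RNA of mouse lung fibroblasts was sequenced from Illumina TruSeq libraries. The authors deposited whole-number counts per gene, for which the submitters' processing notes name featureCounts and mm10, and TPM values for the same libraries. The aligner, annotation release, strand setting and software versions are, in the sources used here, not given, so reads of overlapping and antisense genes cannot be told apart. Groups came from the sample labels, and no column of other samples was present (0).

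Counts of all 27 libraries (9 groups of 3) entered 1 group-means model in edgeR 4.0.16 (R 4.3.3), with TMM scaling, filterByExpr at a minimum count of 10 (18684 of 48440 genes kept), a robust quasi-likelihood F-test and Benjamini-Hochberg adjustment over all kept genes. The SE was taken from the fold change and F, as |log2 fold change| over the root of F. Depth of the 12 libraries used was 20659745 to 50859493 counts, and their number, 3 per group, limits precision. No pair of replicates agreed within sampling noise. The steps were tested on simulated data.

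Genes named are a panel of 9 genes, the 12 largest called rises and falls without overlap whose higher group averaged 5 CPM or more, the 6 largest of each sign for the DMSO change and for the difference, and the most significant list members, up to 6 per list. Dcn and the list members given by name alone were chosen after their values were seen. Predicted and unannotated genes were not named. Names were matched to GENCODE M21 for 48058 IDs. The list symbols H2ax and Rigi had no match. Members and lists were chosen with earlier results of these data known. Promoters are from RefSeq on GRCm38.p6, and no genome sequence or protein table was used.

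Deviations from the group means of same-numbered KU60019 libraries correlated at r = 0.2, 0.165 and 0.431 for _705, _715 and _716. Of unlike number, _715 withdrawn with _705 at 35 d reached 0.279, so these values do not settle whether the numbers pair the libraries. In DMSO the same-numbered values were 0.159, -0.0841 and 0.13. The main fit held no term for these numbers, so the p-values given are unpaired, and the replicate block was an alternative only. Alternatives were scaling by library size alone or by RLE size factors, no filter, a replicate block, only the groups compared, removal of the gene length trend, protein-coding genes alone, DESeq2 1.42.0, limma 3.58.1 on log2(TPM + 1) (genes with 1 TPM or more in 3 libraries), and leaving out each library. Leaving out libraries above 0.4% ribosomal RNA was added after the data were seen. Some genes are not reported here. The file of expressed genes repeats TPM values and was not used. The 15-day and irradiated groups entered the fit only.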

Additional observations from a re-analysis of the deposited data

Results flagged for a closer look

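The change over the 20 days of withdrawal differed between the KU60019 and the DMSO arm for 6060 of the 18684 genes, by the interaction term of the edgeR fit at an adjusted p under 0.05. Among the genes named above 58 had such a difference, 29 with a positive and 29 with a negative value, and each is listed here with its difference as KU60019 change minus DMSO change on the log2 scale. Groups of 3 libraries were not searched for single outlying values.

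Of the 58 genes, 18 were called in opposite directions in the 2 arms in the fit of all libraries. Those that fell after withdrawal of KU60019 and rose after withdrawal of DMSO were Ska1 (-6.54), Mki67 (-6.26), Ccnb1 (-5.67), Cenpf (-5.61), Foxm1 (-4.86), Rad54l (-4.65), Rrm2 (-4.48), Top2a (-4.31), Mcm6 (-3.44), mt-Cytb (-2.33), Hmgcs1 (-2.07) and Insig1 (-1.52). Those that rose after KU60019 and fell after DMSO were Hsd3b3 (3.88), Hsd3b6 (3.54), Lama5 (1.71), Meg3 (1.58), Hspa5 (1.51) and Tgfb3 (1.43).

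Of the genes with a positive difference, the larger values were those of Adamtsl2 (8.22), Bmp3 (6.42), Il33 (5.65), Col14a1 (4.58), Il6 (4.31), Dcn (3.59), Ogn (3.46), Sfrp2 (3.39), Fgf21 (3.17), Chl1 (3.00) and Col3a1 (2.72). Smaller positive values were those of Gdf15 (2.55), Pcdh10 (2.16), Tgfb2 (2.07), Cox6a2 (1.69), Vgf (1.54), Rbl2 (1.24), Peg3 (1.05), Pdgfra (0.90), Sesn1 (0.90), Slc3a2 (0.70), Cd68 (0.67) and Cdkn1b (0.53). Negative differences beside those given were found for Prl2c3 (-7.50), Akr1c18 (-5.66), Cck (-3.13), Upp1 (-2.62), Nqo1 (-2.52), Lmnb1 (-2.46), H19 (-2.27), mt-Co2 (-1.68), Cxcl5 (-1.64), Cd80 (-1.44), Shmt2 (-1.44), Phgdh (-1.44), Vim (-1.43), Cycs (-0.98), Cdkn2b (-0.74), Scd2 (-0.70) and Pdk1 (-0.48).

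The call of the difference was lost with at least 1 of 12 libraries left out for 11 of the 58, namely Cd68, Cdkn1b, Cox6a2, Cxcl5, H19, Pcdh10, Pdgfra, Pdk1, Peg3, Rbl2 and Scd2. It was lost for 13 without the 2 DMSO withdrawn libraries rich in ribosomal RNA, which add Cdkn2b, Chl1, Fgf21, Il6 and Slc3a2 to 8 of those 11. limma on log2(TPM + 1) ended 11 (Cd80, Cdkn2b, Cxcl5, Cycs, H19, Insig1, Pdk1, Phgdh, Scd2, Upp1 and Vim). Each of the 58 differences was called with RLE size factors and with DESeq2.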

How the results depend on the processing

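For withdrawn KU60019 against KU60019 35 d, library size alone gave 728 lower genes, no filter on low counts gave 1325 called genes (526 higher, 799 lower), only the groups compared in the fit gave 4375 (2175 higher, 2200 lower), and limma on log2(TPM + 1) gave 1482 (405 lower). For withdrawn DMSO against DMSO 35 d limma gave 2146 higher and 9828 lower genes, and without the libraries above 0.4% ribosomal RNA 7381 were called (3799 higher, 3582 lower). For the difference, library size alone gave 4504 higher and 1763 lower genes, limma 7723 and 808, and the fit without those libraries 2966 (1401 higher, 1565 lower). In all other settings these counts stayed within 1.5 times those reported. With each library left out in turn the KU60019 count was 629 to 2513 (269 to 1109 higher, 304 to 1404 lower), the DMSO count 10631 to 12243 (5220 to 5943 higher, 5369 to 6300 lower) and that of the difference 4702 to 7379 (2319 to 3774 higher, 2383 to 3605 lower).

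The replicate block gave 1004 higher and 1222 lower genes in KU60019 cells, of which 961 and 1124 were among those reported. Of the 92 named genes called in KU60019 cells 1 lost its call under the block, Acta2, and of the 58 named differences 1 did, that of Cd68 (adjusted p = 0.0521). In DMSO the block gave 5792 higher and 6082 lower genes, and for the difference 2936 and 3014. Of the 92 named genes 52 kept their call with each library left out in turn and 63 in every other setting. limma ended 23 of these calls (Slfn5, Ndnf, Slc25a30, Usp33, Cenpf, Foxm1, Mcm6, Rad54l, Atr, Cdkn1b, Sesn1, Cfb, Col3a1, Tgfb2, Nqo1, Slc3a2, Hspa5, Pdk1, Meg3, Peg3, H19, Pdgfra and Ska1). Without a filter 13 were lost (Slfn5, Ndnf, Slc25a30, Usp33, Aen, Sesn1, Il33, Col14a1, Acta2, Hspa5, H19, Egfl8 and Esam), by library size alone 2 (Sesn1 and H19) and with the length trend removed 1 (Acta2). Changes of direction were seen for Trp53, not called in KU60019 cells, at -0.0042 in limma and between -0.093 and 0.23 with 1 library left out, below 0 without S22_705, S23_715 or S18_716, and in limma for the differences of Cdkn2b (0.095), Upp1 (0.092), Scd2 (0.13) and Pdk1 (0.36). The median difference of all genes was 0.665 in limma, against 0.021 in the main fit. The causes were not tested. Genes of few counts, such as Cfb, have wide errors at this depth, and a gene that missed the threshold is not shown to be unchanged.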

Other observations

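Families of genes that share a name stem were counted after their values had been seen, and reads may be split among their near-identical copies. Their DMSO and difference counts were not recomputed without the 2 libraries rich in ribosomal RNA. Of all tested genes 5.77% rose and 6.82% fell after KU60019, against 31.5% and 32.6% after DMSO. Of 34 tested replication-dependent histone genes, the histones made in S phase, 12 fell and none rose after withdrawal of KU60019, with a median log2 fold change of -0.74, while after DMSO 18 rose and 6 fell. Of 77 mitochondrial ribosomal protein genes 32 rose and none fell after KU60019 (median 0.52), and 65 rose and 1 fell after DMSO. Of 39 proteasome subunit genes 15 rose and none fell after KU60019 (median 0.43), and 30 rose after DMSO. Of 18 aminoacyl-tRNA synthetase genes, which charge tRNAs, 9 rose after KU60019 (median 0.43) and 15 after DMSO. The 78 cytosolic ribosomal protein genes had a median of 0.42 with no call by edgeR after KU60019, against 77 risen after DMSO, and 56 had a negative called difference between the arms. At an unadjusted p under 0.05 edgeR had 18 of them higher and none lower after KU60019, DESeq2 called 4 higher, and limma on log2(TPM + 1) called 6 higher.

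Of 4 tested 3-beta-hydroxysteroid dehydrogenase genes 3 rose after KU60019 (median 2.32) and 3 fell after DMSO, and all 4 had a positive called difference. Of 7 late cornified envelope and small proline-rich genes, which build the skin barrier, 5 rose after KU60019 (median 3.33) and 4 after DMSO. Of 13 guanylate-binding proteins and immunity-related GTPases 11 fell in each arm, with medians of -1.65 after KU60019 and -2.75 after DMSO. This family overlaps the interferon list above, with Irgm2, Gbp2 and Gbp3 among the genes counted in both. Of 9 Serpina3 genes 7 fell after KU60019 (median -2.23) and 8 after DMSO. Of 20 genes of the protocadherin gamma cluster 4 fell after KU60019 (median -1.73) and 18 after DMSO, and 3 differences were positive and called.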
